A study of Rattus norvegicus with 4 samples.

Results

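The genes described here encode transcription factors of the forkhead, homeobox, NFI, Rfx, Glis and AP-2 families, taken by gene name from the table of normalized counts. The name pattern found 76 genes among the 14410 listed: 26 forkhead, 2 Hox, 7 Meis and Pbx, 3 NFI, 8 POU, 5 Lhx, 3 Pax genes, 5 sine oculis homeobox genes, and 4 Dlx, 7 Rfx, 3 Glis and 3 AP-2 genes. They were measured by RNA-seq in CG4 cells, an oligodendroglial progenitor line of the rat that was derived from perinatal brain. The ctrl group had received a retrovirus carrying CAG-IRES-GFP, and the Phf8oe group one carrying CAG-Phf8-IRES-GFP, in which the CAG promoter drives the histone demethylase gene Phf8. Cells of both groups were wild type, were sorted for GFP, expanded, and held for 3 days in differentiation medium. Each group had 2 libraries labelled as biological replicates. Nothing in the labels says that these came from separate transductions, so the p-values measure only the spread between these libraries.

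Forkhead and Rfx proteins bind DNA through a winged helix, homeobox proteins through a homeodomain, and Glis proteins through zinc fingers related to those of the Gli factors of the Hedgehog pathway. Rfx factors recognise the X-box and are known for driving genes of the cilium. NFI factors act in gliogenesis and on astrocyte genes such as Gfap, Foxo factors act downstream of insulin and PI3K signalling, Dlx factors specify forebrain interneurons, and AP-2 alpha (Tfap2a) is known from the neural crest. Hox genes set position along the hindbrain and spinal cord.

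Values are gene counts that had been scaled between libraries and rounded, called normalized counts below. Library totals ran from 39945215 to 41149255 of them. The step between neighbouring values gave an estimated depth of 28432668 reads in Phf8oe replicate 2, the shallowest library, and 47757812 reads in ctrl replicate 1, the deepest. Phf8 itself read 2026 and 2205 in ctrl and 5650 and 10796 in Phf8oe. The groups did not overlap, but the difference did not pass the threshold used throughout, a limma adjusted p of 0.05 (log2 fold change 1.89, SE 0.35, adjusted p = 0.0631). It passed with either Phf8oe library left out, which removes the spread between them, and did not pass without ctrl replicate 1 (adjusted p = 0.348) or ctrl replicate 2 (adjusted p = 0.185). Mitochondrial transcripts took 3.62% to 3.68% of the ctrl values and 4.76% to 5.34% of the Phf8oe values, and their part in the results was not tested. Of 14 oligodendrocyte markers 4 rose in Phf8oe and none fell, or 28.6% called beside 7.64% of all genes tested. The other 10 did not pass, and 3 of the 14 had a fold change below 0. The summed level of the 14 was 496220 to 501843 in ctrl and 697204 to 760226 in Phf8oe. Of 11 progenitor markers 4 fell and none rose, the summed level being 82163 to 82612 in ctrl and 52762 to 62838 in Phf8oe. In such bulk cultures fewer cells of a type and less RNA per cell cannot be told apart.

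Of the 76 members, 74 had a value of at least 10 in 2 or more libraries and were tested. In Phf8oe 6 fell (Glis3, Rfx4, Tfap2a, Rfx3, Meis3 and Foxo3), 2 rose (Dlx5 and Foxd1) and 66 did not pass. Of all 14368 genes tested 7.64% passed in either direction, 2.99% higher and 4.65% lower, so the 10.8% of members that passed lay near the background. Upper quartile scaling split the calls over all genes into 609 higher and 589 lower, against 430 and 668 with the deposited scaling, and left the 8 members' calls in place. The median log2 fold change was -0.01 over the members and 0.00 over all genes tested, and the median size of the change without regard to sign was 0.26 and 0.22 on the same scale. The groups did not overlap in 42 of the 74 members, 20 higher and 22 lower in Phf8oe, against 57.6% of all genes tested. At an unadjusted p under 0.05 in limma 22 of the 74 members differed, or 29.7%, beside 26.3% of all genes tested. Most members, then, neither rose nor fell past the threshold. The 2 members that were not tested had low values: Foxs1 (8 and 5 in ctrl, 21 and 8 in Phf8oe) and Lhx6 (9 and 16 in ctrl, 9 and 7 in Phf8oe).

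**Figure D1:**
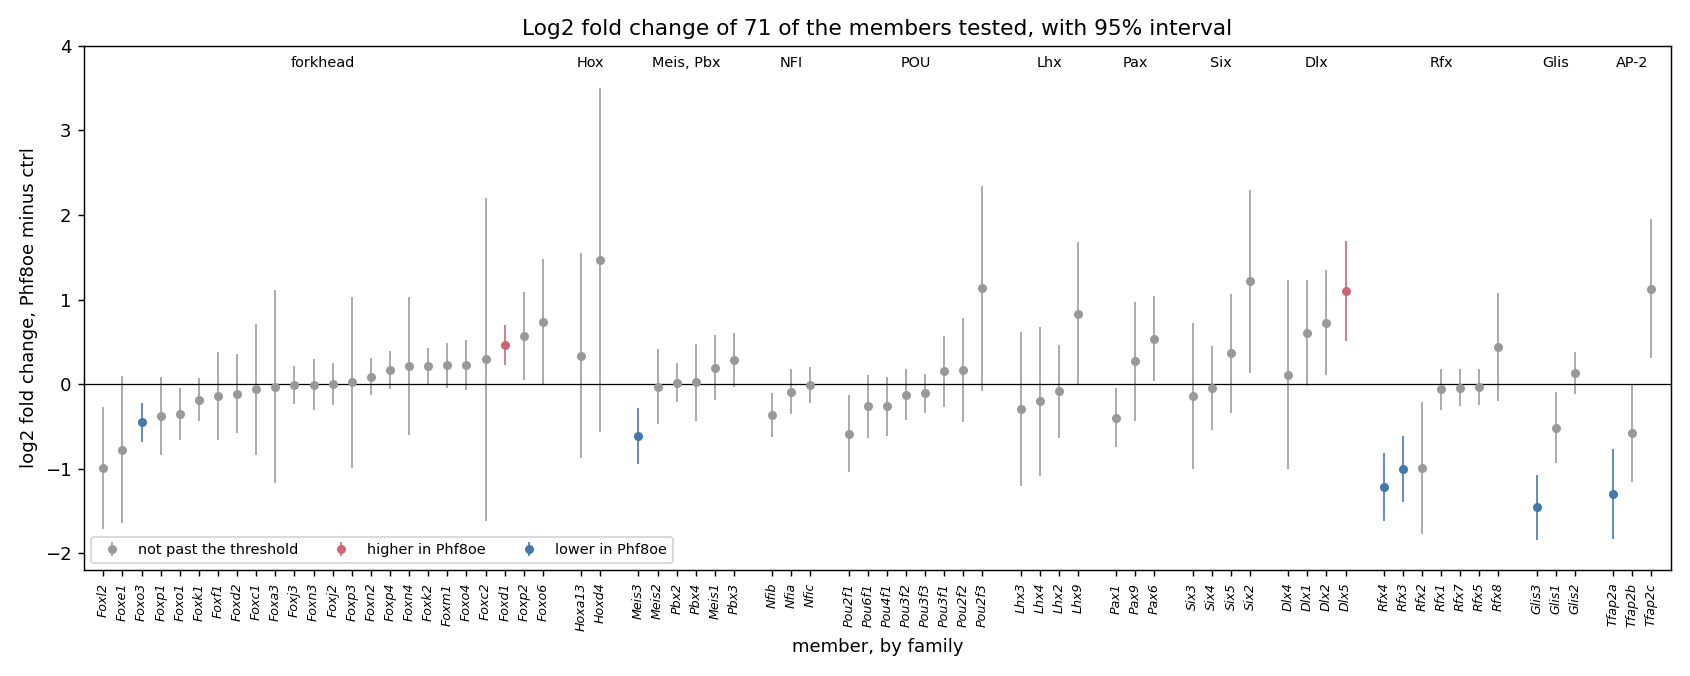
Log2 fold change (Phf8oe minus ctrl, vertical axis) of 71 of the 74 members tested, ordered within families on the horizontal axis. Bars are 95% intervals from the limma fit, and colour marks the 6 members that fell and the 2 that rose; most others lie around 0.

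**Figure D2:**
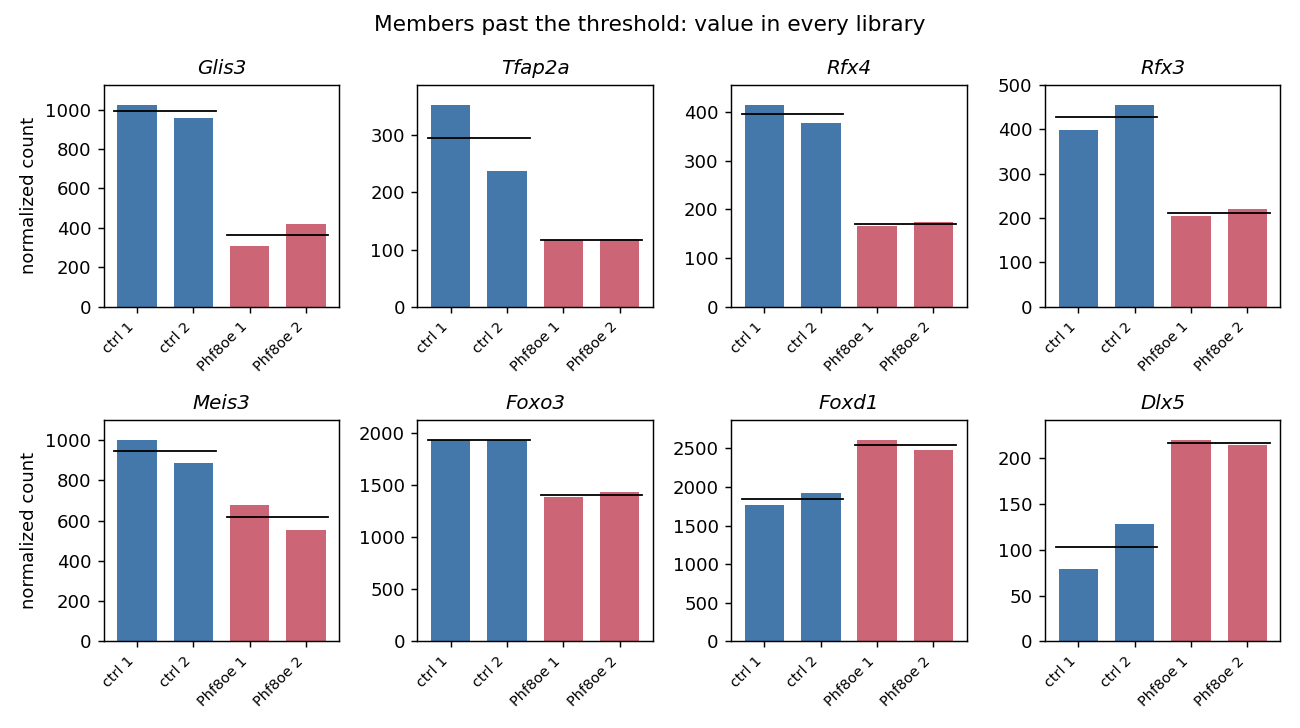
Normalized counts (vertical axes, from 0) of the 8 members past the threshold in each of the 4 libraries, with black lines at the group means. In every panel both Phf8oe libraries lie on the same side of both ctrl libraries, below them for Glis3, Tfap2a, Rfx4, Rfx3, Meis3 and Foxo3 and above them for Foxd1 and Dlx5.

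Among the Rfx genes 2 of 7 fell and none rose, where 4.65% of all genes tested fell and 2.99% rose. Rfx3, whose product is a main regulator of ciliary genes, read 399 and 455 in ctrl and 204 and 221 in Phf8oe. Both Phf8oe libraries thus stood well below both ctrl libraries (2-fold lower, log2 fold change -1.0, SE 0.17, limma adjusted p = 0.0131). Rfx4, a factor of neural tube and brain patterning, read 414 and 378 in ctrl and 165 and 174 in Phf8oe, a fall of 2.33-fold (log2 fold change -1.22, SE 0.18, adjusted p = 0.00705). Rfx2, a close relative of Rfx3, read 161 and 136 against 52 and 105. It was lower in both Phf8oe libraries, but these differed widely from each other and it did not pass (log2 fold change -0.99, SE 0.34, adjusted p = 0.111).

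Rfx1, Rfx5 and Rfx7 stood close to no change. Rfx5, a regulator of MHC class II genes, read 3959 and 3929 in ctrl and 3901 and 3807 in Phf8oe, with a 95% interval of the log2 fold change of -0.25 to 0.18. Rfx7 read 3792 and 3959 against 3804 and 3710 (interval -0.26 to 0.17), and Rfx1 1516 and 1433 against 1383 and 1437 (interval -0.31 to 0.18). These intervals leave out a change of the size seen in Rfx3 and Rfx4. Rfx8 read 47 and 52 against 60 and 76, apart between groups, and did not pass (log2 fold change 0.44, SE 0.28).

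Glis3 had the largest fall of the 74 members tested. It stood at 1023 and 958 in ctrl but only 307 and 421 in Phf8oe, or 990.5 ± 46 and 364 ± 80.6 (SD, n = 2), 2.75-fold lower (log2 fold change -1.46, SE 0.17, limma adjusted p = 0.00328). Glis3 acts in pancreatic beta cells, thyroid and kidney and has been linked to the cilium. Its relative Glis1 read 250 and 242 against 172 and 171, apart in both groups but not past the threshold (log2 fold change -0.52, SE 0.19, adjusted p = 0.117). Glis2 read 1333 and 1448 against 1550 and 1499 (log2 fold change 0.13, SE 0.11). The Glis genes therefore differed in sign among themselves, and no test of that difference was made.

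Rfx3 and Glis3 lie next to each other on rat chromosome 1, with no other tested gene between them in the GRCr8 annotation of RefSeq. The genes on either side did not pass: Pum3, beyond Rfx3, had a log2 fold change of 0.03 (adjusted p = 0.887) and Slc1a1, beyond Glis3, of -0.17 (adjusted p = 0.436). One place further out, Vldlr, on the side of Rfx3, fell (log2 fold change -0.67, adjusted p = 0.012). Spata6l, on the side of Glis3, did not pass (log2 fold change 0.49, adjusted p = 0.247). The neighbours were examined with the values of Rfx3 and Glis3 in view. Rfx3, Glis3 and Rfx4 are also genes of long span. Of 1808 tested genes that span 100 kb or more in GRCr8, 11.6% fell, against 3.76% of 10285 shorter ones, and the median log2 fold changes were -0.14 and 0.02. Among the members 3 of 14 long genes fell, all 3 named above, and 3 of 60 shorter ones. The part of gene span in these falls was not tested.

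The sequences before the annotated starts of this adjacent pair that fell, and of Foxd1, which rose, are shown because these data change at those genes in opposite directions. They are RefSeq sequences of GRCr8, an assembly other than the rn6 build named for the counts, 250 bases each, read 5′ to 3′ on the gene's strand up to the base before the start. Capitals mark matches on either strand to any of 7 short motifs: GTTGCC (the core of the Rfx X-box), TGTTTAC (forkhead), GCCNNNGGC (AP-2), ATGCAAAT (POU octamer), TGACAG (Meis), TGANTCA (AP-1) and TGACGTCA (cAMP response element).
Rfx3, chr1:235122423-235122672, minus strand: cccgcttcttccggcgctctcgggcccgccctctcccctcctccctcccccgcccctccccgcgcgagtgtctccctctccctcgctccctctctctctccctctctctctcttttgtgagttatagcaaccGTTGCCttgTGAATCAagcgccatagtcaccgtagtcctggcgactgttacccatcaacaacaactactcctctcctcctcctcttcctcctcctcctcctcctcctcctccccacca
Glis3, chr1:235809417-235809666, minus strand, the most upstream of 4 listed starts: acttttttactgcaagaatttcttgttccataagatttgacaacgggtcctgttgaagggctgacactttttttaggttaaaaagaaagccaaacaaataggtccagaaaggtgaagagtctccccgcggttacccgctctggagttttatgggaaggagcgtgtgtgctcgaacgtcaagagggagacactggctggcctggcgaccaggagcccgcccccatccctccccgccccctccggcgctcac
Foxd1, chr2:31436552-31436801, plus strand: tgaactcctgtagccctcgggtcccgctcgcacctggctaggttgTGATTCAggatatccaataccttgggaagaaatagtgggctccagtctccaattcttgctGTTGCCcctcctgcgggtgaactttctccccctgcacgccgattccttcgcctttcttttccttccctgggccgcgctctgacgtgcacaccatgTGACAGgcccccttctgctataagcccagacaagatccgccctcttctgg
The Rfx3 sequence holds 1 X-box core, 118 bases before the start, next to 1 AP-1 match at 109. The Glis3 sequence holds none of the 7 motifs. In Foxd1 there is an X-box core at 145, an AP-1 match at 205 and a Meis match at 50 bases before the start. The 50 members with a listed promoter were read in the same way, and promoters of Tfap2a, Foxo3 and Dlx5 were not analysed here. An X-box core stood in 8 of these 50 (16%) and in 9.89% of 27457 promoters of the same length, an AP-1 match in 5 (10%) against 6.33%, and an AP-2 match in 18 (36%) against 13%. Among the 9954 promoters of tested genes the shares were 10.3%, 4.19% and 21.5%. The 50 members had a median of 17 CpG pairs in the 250 bases, beside 16 for tested genes and 6 for all promoters. Their median content of G and C was 66.6%, beside 60.4% for tested genes and 52% for all promoters. The part of this content in the shares of matches was not tested, and a match is a description of letters only.

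The AP-2 genes went in different directions. Tfap2a, a regulator of neural crest and skin development, read 353 and 238 in ctrl and 116 and 118 in Phf8oe. The ctrl libraries differed from each other by more than the Phf8oe libraries did, and both lay above them (2.47-fold lower, log2 fold change -1.30, SE 0.23, limma adjusted p = 0.015). Tfap2b read 143 and 105 against 78 and 85 and did not pass (log2 fold change -0.58, SE 0.25, adjusted p = 0.183). Tfap2c, with low values of 30 and 56 in ctrl, stood at 110 and 75 in Phf8oe. Its groups were apart in the other direction, again short of the threshold (log2 fold change 1.13, SE 0.36, adjusted p = 0.0913). Among 17 tested Schwann cell and neural crest markers 2 fell, or 11.8% beside 7.64% of all genes called, and none rose. The median log2 fold change was -0.07, and Tfap2a was 1 of the 2 that fell. The other was Egr2, a factor of peripheral myelination, at 543 and 517 against 77 and 180 (log2 fold change -2.16, adjusted p = 0.0368). The summed level of these markers was 80643 to 96634 in ctrl and 69991 to 71630 in Phf8oe. Erbb3, which did not pass, is a large part of it (65592 and 50654 against 37847 and 43214). Fold changes were below 0 in 10 of the 17 markers and above 0 in 7. The part of such cells in the fall of Tfap2a was not tested.

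**Figure D3:**
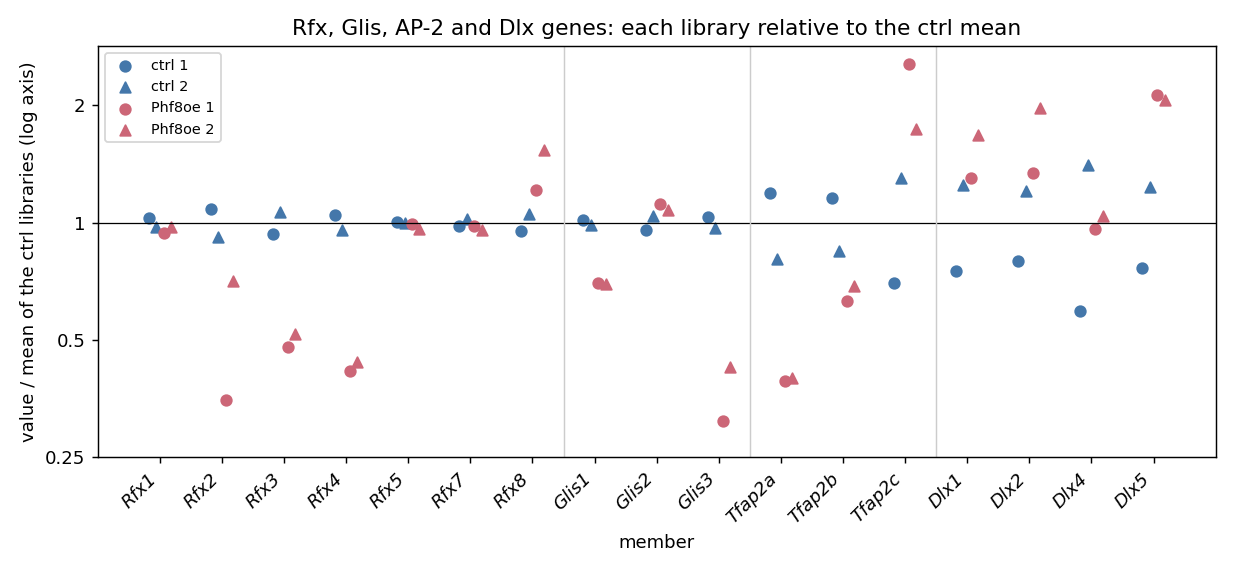
Each library's value divided by the mean of the ctrl libraries (log axis) for the Rfx, Glis, AP-2 and Dlx genes; circles are replicate 1 and triangles replicate 2. Rfx3, Rfx4, Glis3 and Tfap2a lie below the ctrl libraries in both Phf8oe libraries, Rfx1, Rfx5 and Rfx7 stay near 1, and Dlx5 lies at about 2, its Phf8oe values of 220 and 214 standing against 79 and 128.

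All 4 Dlx genes had a fold change above 0, as had 7240 of all 14368 genes tested. Of the 4, 1 passed, where 7.64% of all genes tested did. Dlx5, known from forebrain interneurons and the skeleton, read 79 and 128 in ctrl and 220 and 214 in Phf8oe. The Phf8oe libraries nearly coincided and lay above both ctrl libraries (2.15-fold higher, log2 fold change 1.1, SE 0.26, limma adjusted p = 0.0375). Dlx1 and Dlx2, which lie side by side on rat chromosome 3, read 117 and 194 and 147 and 223 in ctrl, and 202 and 261 and 248 and 364 in Phf8oe. The groups were apart in both genes, but the ctrl libraries differed strongly and neither passed (adjusted p = 0.203 and 0.133). For Dlx1, Dlx2 and Dlx5 alike ctrl replicate 1 was the lowest library. Dlx4 was low throughout, with a mean of 13.5 in both groups (8 and 19 against 13 and 14, log2 fold change 0.11, SE 0.49).

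Of the 25 forkhead genes tested 1 rose and 1 fell, or 8% called beside 7.64% of all genes tested. The median log2 fold change of the family was 0.00. Foxo3, a factor of quiescence and stress resistance, read 1934 and 1930 in ctrl and 1386 and 1433 in Phf8oe. Replicates lay close together in each group, and the fall was 1.37-fold (log2 fold change -0.45, SE 0.10, limma adjusted p = 0.0333). The other Foxo genes did not follow a common direction: Foxo1 read 962 and 953 against 680 and 830 (log2 fold change -0.35, adjusted p = 0.143), and Foxo4 1890 and 2423 against 2511 and 2505 (log2 fold change 0.23, adjusted p = 0.297). Foxo6 read 438 and 806 against 1044 and 939 (log2 fold change 0.74, adjusted p = 0.193), with ctrl replicate 1 far below the rest.

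Foxd1, known from the kidney stroma and the developing hypothalamus and retina, rose from 1763 and 1925 to 2610 and 2481. Both Phf8oe libraries lay above both ctrl libraries by more than replicates differed (1.38-fold, log2 fold change 0.47, SE 0.11, limma adjusted p = 0.0327). Foxd2 read 148 and 153 against 141 and 137 and did not pass. Foxm1, a factor of mitotic gene expression, read 803 and 835 against 948 and 960 (95% interval of the log2 fold change -0.05 to 0.49). Its groups were apart, but it did not pass. Several forkhead genes lay near 0 with narrow intervals, such as Foxj3 (2107 and 2190 against 2144 and 2113, interval -0.24 to 0.21), Foxn2 (3084 and 3005 against 3153 and 3310, interval -0.13 to 0.31) and Foxj2 (1521 and 1576 against 1623 and 1480, interval -0.25 to 0.25). Foxl2 read 54 and 54 in ctrl and 31 and 23 in Phf8oe, and had the lowest fold change of the family without passing (log2 fold change -0.99, SE 0.32, adjusted p = 0.0896).

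The Foxp genes held no call. Foxp1 read 294 and 275 against 188 and 255, Foxp2 128 and 118 against 156 and 214, and Foxp4 2116 and 2125 against 2302 and 2458. These 3 were apart between groups, Foxp1 lower and Foxp2 and Foxp4 higher in Phf8oe, with adjusted p of 0.276, 0.16 and 0.332. Foxp3, the factor of regulatory T cells, was low (28 and 15 against 27 and 16), and it overlaps Ccdc22 in GRCr8, as Foxp1 overlaps Eif4e3, Foxm1 overlaps Tex52, Six4 overlaps Mnat1 and Pax9 overlaps Slc25a21. How the counting treated strand is unknown here, and so values of such overlapping pairs are uncertain. In Foxk2 values of 5158 and 5319 stood beside 6037 and 6139 (log2 fold change 0.22, adjusted p = 0.185). Its relative Foxk1 read 1559 and 1771 against 1493 and 1434 (log2 fold change -0.18, adjusted p = 0.337).

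Foxc1 (73 and 117 against 68 and 115), Foxc2 (4 and 27 against 14 and 13) and Foxf1 (137 and 180 against 154 and 132), genes of mesenchymal and vascular development, overlapped between groups. Foxa3, Foxe1, Foxn3 and Foxn4 also did not pass, with log2 fold changes of -0.03, -0.78, -0.01 and 0.22. Of 10 tested fibroblast and pericyte markers, one of them Foxc2, 3 fell, among them Col1a1 (454 and 437 against 121 and 164) and Sparc (23318 and 22629 against 14786 and 15780). The 2 that rose were Postn (31 and 61 against 111 and 136) and Fbln1 (889 and 1078 against 1506 and 1390). Of the 10 markers 50% were called, beside 7.64% of all genes tested. The summed level of the 10, of which Sparc is a large part, was 32693 to 32878 in ctrl and 23030 to 23493 in Phf8oe. Fold changes were above 0 in 5 of the 10 and below 0 in 5.

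Products of the Meis and Pbx genes bind DNA together with each other and with Hox proteins. Of these genes 1 of 7 fell and none rose, where 4.65% of all genes tested fell and 2.99% rose. Meis3 read 1002 and 887 in ctrl and 680 and 555 in Phf8oe. The groups were apart, with replicates differing by a similar amount in each (1.53-fold lower, log2 fold change -0.62, SE 0.15, limma adjusted p = 0.0373). Meis1 (328 and 398 against 395 and 433) and Meis2 (1117 and 1200 against 925 and 1383) overlapped between groups, and so did Pbx2 (2288 and 2354 against 2430 and 2270) and Pbx4 (220 and 252 against 270 and 211). For Pbx2 the 95% interval of the log2 fold change was -0.21 to 0.25. Pbx3 read 1361 and 1530 against 1987 and 1550 and did not pass (log2 fold change 0.28, adjusted p = 0.237). The Hox genes had few reads: Hoxd4 read 2 and 16 against 14 and 25, and Hoxa13 9 and 12 against 22 and 8, both overlapping between groups.

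No NFI gene passed. Nfic read 4424 and 4478 in ctrl and 4434 and 4369 in Phf8oe (95% interval of the log2 fold change -0.23 to 0.20), and Nfia 1818 and 1949 against 1635 and 1917 (interval -0.35 to 0.18). Nfib was lower in both Phf8oe libraries, at 1117 and 1176 against 887 and 886, without passing (log2 fold change -0.37, SE 0.11, adjusted p = 0.0796). At an unadjusted p under 0.05 in limma 1 of the 3 differed, where 26.3% of all genes tested did, and limma-voom on estimated reads called 0. Of 17 tested glial genes described as NFI targets 2 fell, Fabp7 (12105 and 12826 against 7475 and 8651) and Gfap (79141 and 80736 against 10834 and 19613). Slc1a3, a glutamate transporter gene, was the 1 gene of the list that rose (1063 and 1192 against 1614 and 1692). Of that list 17.6% were called, beside 7.64% of all genes tested, and its median log2 fold change was -0.29. Astrocyte markers had 4 of 17 falling, Gfap among them, and 2 rising, Aldh1l1 (9 and 10 against 32 and 44) and Slc1a3. Thus 35.3% were called, beside 7.64% of all genes tested. Fold changes were below 0 in 10 of the 17 and above 0 in 7. Their summed level, of which Gfap is a large part, was 286113 to 301605 in ctrl and 174589 to 184845 in Phf8oe.

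No POU gene passed either, among 8 tested (1 at an unadjusted p under 0.05 in limma, a threshold that 26.3% of all genes passed, and 0 with limma-voom). The class III genes Pou3f3 and Pou3f2, expressed in neural and glial progenitors, read 2626 and 2571 against 2519 and 2298 and 1234 and 1441 against 1126 and 1330. Their 95% intervals were -0.34 to 0.12 and -0.42 to 0.18. Pou3f1, which is known from the Schwann cell lineage, read 813 and 1046 against 1181 and 885 and overlapped. Pou2f1 (226 and 218 against 159 and 137) was apart between groups, with a log2 fold change of -0.59 (SE 0.20, adjusted p = 0.103). Pou4f1 (439 and 437 against 386 and 345) and Pou6f1 (583 and 551 against 536 and 415) were lower in both Phf8oe libraries, with adjusted p of 0.314 and 0.338. Pou2f2 (97 and 110 against 145 and 93) overlapped, and Pou2f3 (19 and 6 against 23 and 27) was low.

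The Lhx, Pax and sine oculis genes had 12 tested members and no call. At an unadjusted p under 0.05 in limma 0 of 4 Lhx, 2 of 3 Pax and 1 of 5 sine oculis genes differed, beside 26.3% of all genes tested, and limma-voom called 0 in each family. Pax1, which carries a paired domain without a homeodomain, read 725 and 897 against 570 and 658 (log2 fold change -0.40, SE 0.15, adjusted p = 0.138). Pax6, the regulator of eye and forebrain, read 116 and 153 against 202 and 185 (log2 fold change 0.53, SE 0.22, adjusted p = 0.168), and Pax9 57 and 79 against 101 and 65. Pax1 and Pax6 were thus apart between groups in opposite directions.

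Lhx2, a regulator of cortex and retina, read 93 and 120 against 96 and 103 (95% interval -0.64 to 0.47), and Lhx9 19 and 36 against 50 and 45 (adjusted p = 0.197). Lhx3 and Lhx4 had values under 50 in every library and log2 fold changes of -0.29 and -0.20. Six5 read 205 and 384 against 339 and 384, with ctrl replicate 1 below the other libraries, and Six4 165 and 199 against 156 and 197 (interval -0.54 to 0.45). Six3 (20 and 32 against 25 and 21) overlapped, and Six2 (7 and 15 against 32 and 20) was apart at low values (log2 fold change 1.22, SE 0.48, adjusted p = 0.145).

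Other homeobox genes gave 5 calls among 60 tested, or 8.33%, near the 7.64% of all genes tested. All 5 were lower in Phf8oe, and the median log2 fold change of the 60 was -0.12. Among the 5 were Hmbox1 (838 and 828 against 499 and 460, log2 fold change -0.80) and Cux1 (3176 and 3184 against 2324 and 2278, log2 fold change -0.47). Among 26 cofactors of the member families, such as Ldb1, the partner of Lhx proteins, limma called 0, with 1 higher and 7 lower at an unadjusted p under 0.05 (26.3% of all genes tested), and limma-voom called 1 in each direction. Of 9 tested Gli, Zic and Hedgehog pathway genes 1 rose: Smo, the signalling receptor of the pathway, at 349 and 608 against 1189 and 1117 (log2 fold change 1.32, adjusted p = 0.0384).

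Ciliary genes described as Rfx targets held no call. Of 34 tested limma called 0, with 2 higher and 4 lower at an unadjusted p under 0.05, or 17.6% beside 26.3% of all genes tested, and limma-voom called 0. Their median log2 fold change was -0.02 beside 0.00 over all genes tested. Ift88, a core gene of transport within the cilium, read 499 and 576 against 576 and 556, and Bbs4 720 and 693 against 727 and 681. Both genes were singled out with their values in view. Of 19 markers of ependymal and ciliated cells 5 were listed, and Foxj1 was not among them. Rsph1, a gene of the motile cilium, fell (137 and 129 against 42 and 61, log2 fold change -1.38, adjusted p = 0.022), and the other 4 had values under 40 in every library.

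Genes described as Foxo targets had 5 of 29 tested falling and 2 rising, or 24.1% called beside 7.64% of all genes tested. The median log2 fold change of the list was -0.23. Gadd45a, a gene of growth arrest and DNA damage, rose from 1459 and 1676 to 2643 and 2595 (log2 fold change 0.74, adjusted p = 0.00796). Igf1r, the receptor of insulin-like growth factor, read 1329 and 1246 in ctrl, and fell to 748 and 585 (log2 fold change -0.96, adjusted p = 0.00805). Neuronal markers had 2 of 19 falling and 1 rising, or 15.8% called beside 7.64% of all genes tested. Reln read 19228 and 19361 against 6947 and 6748 and Nrgn 9 and 12 against 32 and 55, and the summed level was 48716 to 52832 in ctrl and 27840 to 29393 in Phf8oe. Of 10 microglial markers 3 were listed. Limma called 0 of them, 0 differed at an unadjusted p under 0.05, and limma-voom called 0. The part of other cell types in the members' changes was not tested.

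Leaving out single libraries changed some calls. Without ctrl replicate 1 none of the 8 members passed, the limma adjusted p running from 0.101 for Glis3 to 0.355 for Meis3, and without ctrl replicate 2 only Glis3 and Tfap2a of the 8 did. With either Phf8oe library left out all 8 passed, and no fold change of the 8 changed sign when any library was left out. In such fits the lone library of a group is taken to vary as the other group does. The log2 fold change of Glis3 then ranged from -1.69 to -1.23, that of Tfap2a from -1.59 to -1.02 and that of Dlx5 from 0.76 to 1.45, while Foxo3 stayed between -0.48 and -0.43. Dlx5 and Meis3 also did not pass without robust variance moderation (adjusted p = 0.0616 for both).

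**Figure D4:**
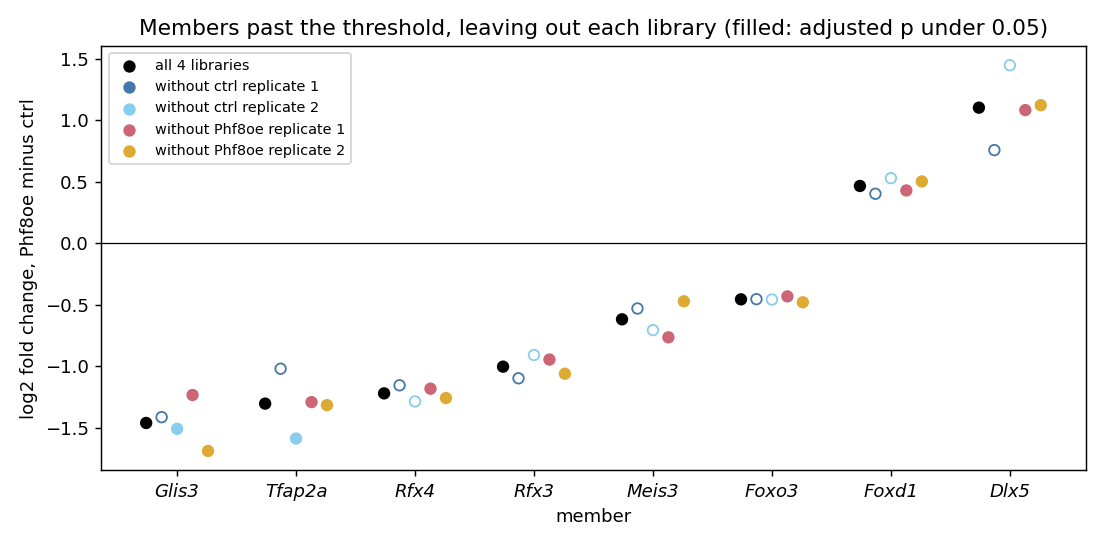
Log2 fold change (Phf8oe minus ctrl) of the 8 members past the threshold with all 4 libraries and with each library left out in turn; filled points have an adjusted p under 0.05. The signs hold throughout, and the open points are those without ctrl replicate 1 and most of those without ctrl replicate 2.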

How the data were processed

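The 4 RNA-seq libraries, 2 a group, were sequenced as paired reads of 150 bases (per the labels). The submitters' processing notes list STAR 2.5.2b, Trimmomatic 0.36, bcl2fastq 2.20 and DESeq2, and for the build rn6 (Rnor_6.0). The sources used here do not give the program that counted genes, its annotation or its strand setting. Although called raw, the deposited signal holds normalized counts: gaps and doublings at regular steps among the whole numbers show that the authors' values had been scaled and rounded. From these steps 1 read was worth 0.845 (ctrl replicate 1), 1.02 (ctrl replicate 2), 0.955 (Phf8oe replicate 1) and 1.42 (Phf8oe replicate 2). Each library's own file held the same values as the joint table.

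A count model does not suit such values, so limma 3.58.1 (R 4.3.3) was fitted to log2(value + 1), a scale that understates changes of low genes, for genes reaching 10 in at least 2 libraries. The group was the only term, and moderation was trended and robust (2 residual degrees of freedom, median prior 6.99). Two-sided p-values were adjusted by Benjamini-Hochberg over the 14368 genes, with a threshold of 0.05. Intervals are 95% ones from that fit. The procedure was also run on simulated data in which genes varied independently of each other. Such data cannot show how it deals with a deviation shared by a whole library.

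Members past the threshold, Rfx3, Glis3, Tfap2a and, in families with no call, the 2 members of highest mean were to be given in full, with up to 2 called genes from each other list. Any further gene was named with its values in view, and 3 members that did not pass are not reported here by name. The members and gene lists were chosen with earlier results of these data known. Alternatives changed the scaling, filter, pseudocount, moderation, replicate term or test (limma-voom on estimated reads), or left out 1 library. Gene order, overlaps, gene spans and promoter sequences come from RefSeq's GRCr8, while the build named for the counts is rn6. For genes with several listed starts the promoter farthest upstream was read. Python 3.11.15 with pandas 2.3.3 and matplotlib 3.10.9 made the remaining tables and figures.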

Additional observations from a re-analysis of the deposited data

How the results depend on the processing

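The 6 members that fell and the 2 that rose passed the threshold under both other scalings, both other filters, both other pseudocounts and limma-voom on estimated reads. With no variance trend 0 members rose, 0 fell and 0 genes of all tested passed in either direction. Without robust moderation 1 member rose and 5 fell, and 256 of all genes were higher. With the replicate block, in which libraries share only a number, 0 members rose, and 65 genes were higher and 308 lower in all; Glis3, Rfx3, Rfx4 and Tfap2a passed. The deviations of same-numbered libraries from their group means had a weak negative correlation (r = -0.13 across genes, which are not replicates). A crossed replicate block, added after the data were seen, gave 4 members higher, 7 lower, and 1056 genes higher and 1298 lower in all. Leaving out one library moved the members' counts between 0 and 5 higher and 0 and 8 lower, and those of all genes between 1 and 927 higher and 19 and 1218 lower, lowest without ctrl replicate 1. Phf8 passed without robust moderation and with the replicate block, at the same log2 fold change of 1.89, and with either Phf8oe library left out, and the range over libraries left out was 1.42 to 2.35. The cause of these differences was not tested; fits without a library have fewer residual degrees of freedom. Members with low values, such as Hoxd4, Hoxa13 and Dlx4, had wide intervals; the parts of depth and of only 2 libraries a group in this were not tested.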
